A study of Homo sapiens with 18 samples.

Results

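The 13 arrays described here are those of an 18-array experiment on which NFKBIA, the gene for the NF-kB inhibitor IkB-alpha and itself a gene that NF-kB induces, had a log2 level under 9.5. They comprise 8 of the 12 arrays from flagellin-treated cells and 5 of the 6 arrays from mock-treated cells. The cells were HEK293, a human embryonic kidney line, carrying an overexpressed murine TLR5, which senses bacterial flagellin. They were given isolated flagellin of the probiotic Escherichia coli strain Nissle (EcN) or of Salmonella Typhimurium SL1344 (ST), or a mock treatment, for 60 or 120 min, and each group had arrays lettered A, B and C. Total RNA was hybridised to Affymetrix Human Gene 2.1 ST arrays, on which a transcript cluster is a set of probes for one gene, and the deposited values are log2 levels after robust multi-array averaging (RMA). The kept arrays are EcN 60 min A and B, EcN 120 min A and B, ST 60 min A and B, ST 120 min A and B, mock 60 min A, B and C, and mock 120 min B and C.

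All groups shared the cell line, the murine TLR5 transgene and growth in SILAC media, whose lysine and arginine were of a heavy, a medium or a light form. The sources used here do not give the form for each array, so amino acid label and treatment cannot be told apart. The labels do not say whether the transgenic line is a single clone or which promoter drives TLR5. For the ST arrays the description field names a mock treatment while the title, source name and treatment field name ST, and the titles were followed. The letters are called biological replicates without further detail, so p-values measure the spread between these arrays.

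The arrays were chosen by a measured value, and NFKBIA and other NF-kB target genes are therefore given as levels with no test. NFKBIA lay between 8.09 and 8.82 on the 13 arrays kept. The 5 arrays left out were those lettered C of EcN (10.15 at 60 min, 10.34 at 120 min) and of ST (10.85 at 60 min, 10.64 at 120 min), and mock 120 min A (10.83). The highest kept array (8.82, mock 60 min A) and the lowest array left out (10.15) stand on either side of the threshold. All 4 flagellin arrays lettered C were thus left out, and all 8 lettered A or B were kept. The array labelled mock 120 min A had an NFKBIA level within the range of the flagellin arrays lettered C, while the flagellin arrays lettered A and B were at the level of the other mock arrays. Whether all labels are right was not tested, and every value of flagellin over mock below takes the labels as given.

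Some other NF-kB genes divided the 18 arrays in the same places: in 11 of 35 measured genes of 3 NF-kB lists, NFKBIA included, every array left out lay above every kept array. CCL2, a monocyte attractant, did not, with 4.88 on EcN 60 min C, below 4.99 on EcN 60 min B, and neither did NFKBIE, another IkB protein, whose level on EcN 60 min C (4.17) was under that of every kept array. TNFAIP3, which encodes the ubiquitin-editing inhibitor A20, ranged from 5.95 to 6.52 on the 8 flagellin arrays and from 6.27 to 6.55 on the 5 mock arrays, against 8.20 to 9.60 on the 5 arrays left out. CXCL8, which encodes the neutrophil attractant interleukin-8, ranged from 2.35 to 2.9 on the kept flagellin arrays and from 2.16 to 2.70 on the kept mock arrays, against 5.62 to 8.76 on the others. Over the 14 genes of a list of NF-kB subunits and inhibitors, the mean level per array ran from 6.14 to 6.32 on kept flagellin arrays and from 6.15 to 6.32 on kept mock arrays, and from 6.70 to 7.39 on the arrays left out. Of 18 chemokines and cytokines, 12 passed the filter on low values, and their mean level per array ran from 2.99 to 3.30 on kept flagellin arrays and from 2.97 to 3.36 on kept mock arrays, against 3.85 to 5.03 on the arrays left out. The ranges of kept flagellin and kept mock arrays overlapped for each of these summaries.

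**Figure D1:**
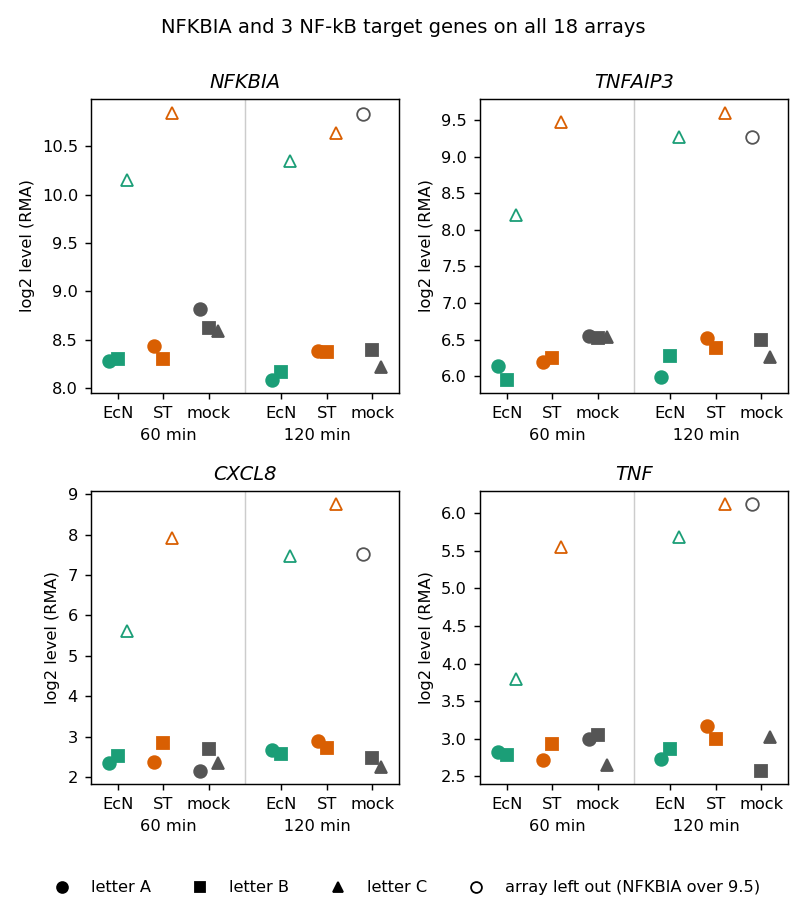
Log2 level (RMA, vertical axis) of NFKBIA, TNFAIP3, CXCL8 and TNF on each of the 18 arrays, by treatment (EcN, ST, mock) at 60 and 120 min. Filled points are the 13 arrays kept and hollow points the 5 left out. For NFKBIA the kept arrays lie between 8.09 and 8.82 and the hollow points between 10.15 and 10.85.

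Type I and type III interferons act through receptors that activate JAK kinases and the transcription factor complex ISGF3, to which IRF9 belongs. ISGF3 binds the interferon-stimulated response element (ISRE) in the promoters of interferon-stimulated genes, whose products block viral replication at many steps. TLR5 signals through MyD88 to NF-kB and MAP kinases, and the MAP kinase branch switches on immediate-early genes such as EGR1 and FOS within minutes through serum response factor and its partners. HEK293 cells make little TLR5 of their own and are widely used to host a transgene for it.

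The promoters of 4 interferon-stimulated genes are shown because their differences are described below and they hold the ISRE core. The core was searched as GAAANNGAAA on both strands in the RefSeq promoter windows of GRCh38.p14, each 250 bases before to 50 after the gene's start, and overlapping matches were counted. Each line gives the 250 bases before the start, 5′ to 3′ on the plus strand, with matches to the core in capitals. The ISG15 window is chr1:1013247-1013496, the IFI44L window chr1:78620198-78620447, the OAS3 window chr12:112938224-112938473 and the IFIT3 window chr10:89327747-89327996.
ISG15: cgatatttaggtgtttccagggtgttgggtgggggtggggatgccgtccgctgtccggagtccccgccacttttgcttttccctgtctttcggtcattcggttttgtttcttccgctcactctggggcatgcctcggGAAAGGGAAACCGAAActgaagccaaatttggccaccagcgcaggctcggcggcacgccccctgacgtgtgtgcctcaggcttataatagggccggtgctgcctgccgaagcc
IFI44L: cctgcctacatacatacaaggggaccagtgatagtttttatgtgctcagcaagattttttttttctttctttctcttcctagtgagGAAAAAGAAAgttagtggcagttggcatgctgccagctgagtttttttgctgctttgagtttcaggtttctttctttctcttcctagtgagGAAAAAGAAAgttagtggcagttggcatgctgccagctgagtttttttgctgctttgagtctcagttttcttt
OAS3: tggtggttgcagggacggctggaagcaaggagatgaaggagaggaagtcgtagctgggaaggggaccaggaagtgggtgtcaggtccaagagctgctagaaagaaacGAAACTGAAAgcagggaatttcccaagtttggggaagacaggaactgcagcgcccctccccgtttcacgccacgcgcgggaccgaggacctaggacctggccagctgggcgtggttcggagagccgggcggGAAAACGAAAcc
IFIT3: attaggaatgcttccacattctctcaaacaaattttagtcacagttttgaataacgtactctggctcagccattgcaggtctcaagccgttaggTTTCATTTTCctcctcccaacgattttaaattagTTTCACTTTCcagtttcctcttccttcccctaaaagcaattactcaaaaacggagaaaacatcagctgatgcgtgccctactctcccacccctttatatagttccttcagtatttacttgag
Each of the 4 holds 2 matches. Those of ISG15 overlap, beginning 113 and 107 bases before the start. Those of IFI44L begin 164 and 73 bases before it, those of OAS3 143 and 12, and those of IFIT3, on the opposite strand, 156 and 122. The core is in 996 of 27305 promoters in the table (3.65%) and in 319 of the 11985 tested genes that have a window there (2.66%). A match is a run of letters, and binding was not measured.

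Differences were tested with limma on 15809 genes, with time as a covariate, and a gene was called at a Benjamini-Hochberg adjusted p under 0.05. Between flagellin and mock over both times, 293 genes were called (1.85%), 136 higher (0.860%) and 157 lower (0.993%). With each array quantile normalized again, 204 were higher and 128 lower. The median log2 fold change over all genes tested was 0.01. The count depends on single arrays. Omitting mock 60 min A, B or C gave 5, 2 or 1 calls. There were 3 without mock 120 min B and 1695 without mock 120 min C. Omitting EcN 60 min B gave 7 and EcN 120 min B 1. There were 1 and 3 without ST 60 min A or B and 157 and 80 without ST 120 min A or B. Mock 120 min B and C stood apart from the 3 mock arrays of 60 min in several genes described below, and EcN 60 min A and EcN 120 min A had the lowest ISG15 of the 8 flagellin arrays.

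A minority of interferon-related genes were called higher on the flagellin arrays. Over 8 lists of interferon-stimulated, sensing, signalling, antiviral and antigen presentation genes, 75 of 82 genes were tested, since 4 had no row with their symbol alone and 3 lay below the filter. Of the 75, 18 were called higher over both times (background 0.860%) and none was called lower by limma. At an unadjusted p under 0.05, 45 were higher and 3 lower, against 1683 and 1664 of all 15809 genes tested. The log2 fold change was above 0 for 61 of the 75, with a median of 0.29. These arrays were chosen, and the genes listed, with earlier results of the same data known. Of the 18 calls, 0 were left without mock 60 min A, B or C, EcN 120 min B or ST 60 min A, and 1 without mock 120 min B, EcN 60 min B or ST 60 min B. There were 7 without ST 120 min B and 10 without ST 120 min A, and 27 without mock 120 min C. The number above 0 stayed between 59 and 63 in all 13 of these fits.

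ISG15 encodes a ubiquitin-like protein that is attached to other proteins and also secreted. At 60 min its log2 level was 4.22 and 5.91 on EcN A and B and 6.41 and 6.50 on ST A and B, against 3.17, 3.19 and 3.79 on mock A, B and C. At 120 min it was 4.53 and 6.12 on EcN A and B and 6.27 and 7.08 on ST A and B, against 4.15 and 4.28 on mock B and C. Within each time every flagellin array lay above every mock array, and the EcN arrays lettered A lay closest to mock. Over both times ISG15 was 4.34-fold higher (log2 fold change 2.12, SE 0.41, adjusted p = 0.033). It was called in 5 of the 13 fits that left out an array, with log2 fold changes between 1.97 and 2.37.

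IFI44L encodes an interferon-induced cytoplasmic protein. At 60 min it was 4.96 and 6.26 on EcN A and B and 6.30 and 6.55 on ST A and B, against 3.15, 2.81 and 2.65 on mock A, B and C. At 120 min it was 4.80 and 5.98 on EcN A and B and 6.03 and 6.17 on ST A and B, against 4.84 and 4.83 on mock B and C. The groups were far apart at 60 min and touched at 120 min, where EcN A lay just under both mock arrays. Both mock arrays of 120 min were higher than those of 60 min, and mock 120 min A, which was left out, was at 2.25. The log2 fold change over both times was 2.17 (SE 0.39, adjusted p = 0.033), or 4.50-fold.

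The oligoadenylate synthetases make the second messenger that activates RNase L, which degrades viral and cellular RNA. All 4 were called higher. OAS2 had the smallest adjusted p of the interferon genes: its level on the 8 flagellin arrays had a minimum of 3.81, a median of 4.58 and a maximum of 5.37, and on the mock arrays it was 2.58, 2.44 and 2.64 at 60 min and 3.47 and 2.86 at 120 min. All 8 flagellin arrays lay above the highest mock array, and the log2 fold change was 1.82 (SE 0.26, adjusted p = 0.021). OAS1 (log2 fold change 1.69), OAS3 (1.25) and OASL (0.68), an OAS-like protein without the synthetase activity, had adjusted p-values of 0.044, 0.039 and 0.041. For OAS1 and OAS3, 6 of 8 flagellin arrays lay above the highest mock array, and for OASL all 8 did.

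The IFIT proteins bind viral RNA that lacks host cap marks. Of 4, IFIT5 was called higher (log2 fold change 0.54, SE 0.12, adjusted p = 0.039). IFIT3 had a larger difference that did not pass (1.76, SE 0.43, adjusted p = 0.052), and IFIT1 and IFIT2 had values of 0.95 (adjusted p = 0.065) and 0.59 (adjusted p = 0.084). IFIT2 was 1.99, 1.87 and 1.78 on mock at 60 min and 1.88 and 2.39 on mock 120 min B and C. Array medians lay between 2.27 and 2.32, so IFIT2 passed the filter through the flagellin arrays. It is among the 75 genes tested and the 45 higher before adjustment, and its results are not read as support. IFIT3 was 4.72, 5.81, 5.69 and 6.34 on EcN A and B and ST A and B at 60 min, against 2.94, 2.45 and 2.96 on mock. At 120 min it was 4.10, 5.63, 5.86 and 5.44, against 4.72 and 5.12 on mock B and C. The groups did not overlap at 60 min and overlapped at 120 min, where the mock level was higher than at 60 min.

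**Figure D2:**
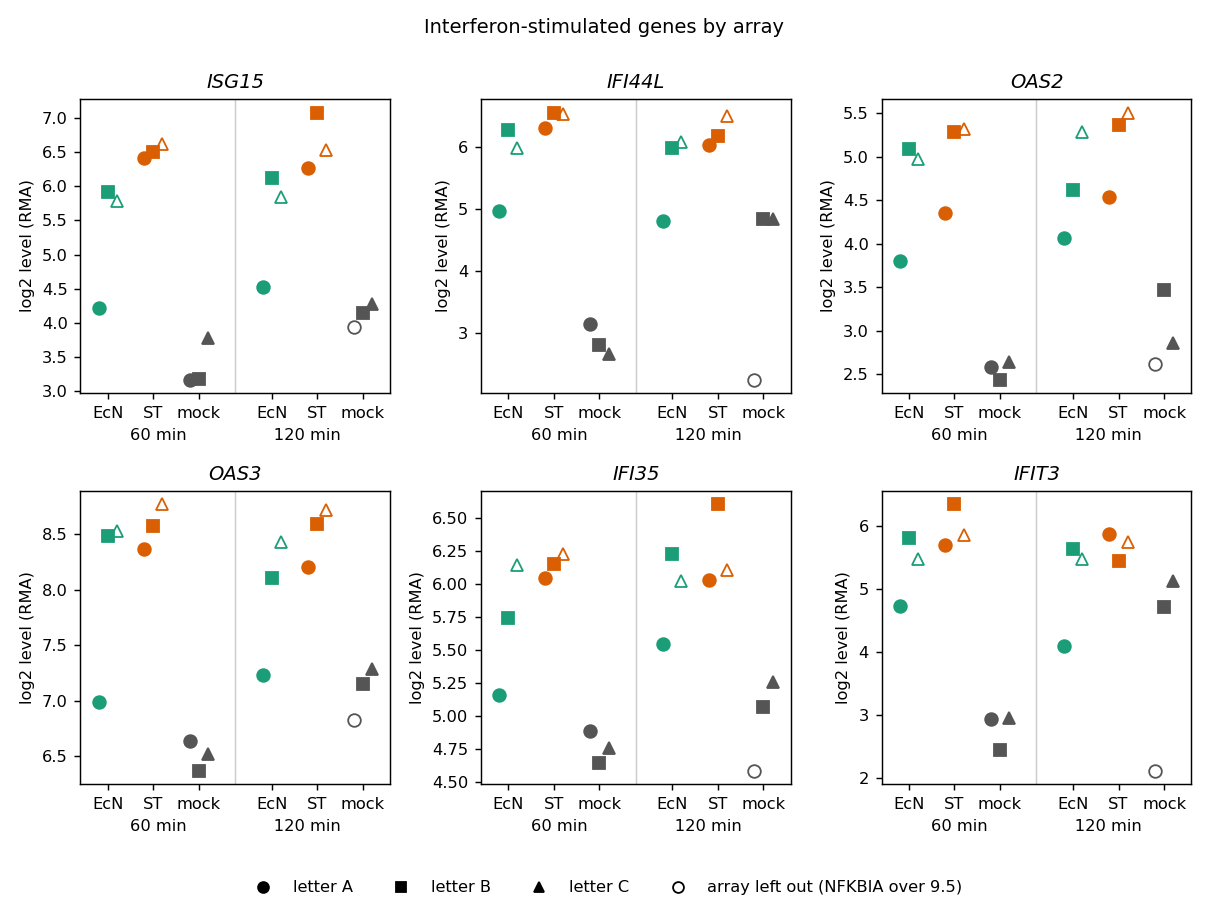
Log2 level (RMA, vertical axis) of ISG15, IFI44L, OAS2, OAS3, IFI35 and IFIT3 on each array, by treatment (EcN, ST, mock) at 60 and 120 min; hollow points are the 5 arrays left out. At 60 min all 4 kept flagellin arrays lie above all 3 mock arrays in ISG15, IFI44L and IFIT3, and at 120 min the mock arrays B and C lie at 4.84 and 4.83 in IFI44L while the hollow mock array is at 2.25.

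Of 10 genes for other interferon-induced IFI and IFITM proteins, 4 were called higher. IFI44, a relative of IFI44L, had a log2 fold change of 1.5 (adjusted p = 0.045), IFI6, a small mitochondrial and endoplasmic reticulum protein, 1.16 (adjusted p = 0.0445), and IFI35, a leucine zipper protein, 0.98 (adjusted p = 0.033). IFI27 had 1.26 with an adjusted p of 0.079. The membrane-restriction factors IFITM1, IFITM2 and IFITM3 had log2 fold changes of 0.25, -0.10 and 0.09, with adjusted p-values of 0.189, 0.709 and 0.770. Beside ISG15 itself, of the 6 genes of ISG15 conjugation HERC6, a ligase of the HERC family, was called (0.41, adjusted p = 0.045). The E1 enzyme UBA7, the E2 enzyme UBE2L6, the ligase HERC5 and the deconjugating protease USP18 had values of 0.19, 0.62, 0.23 and 0.23, none of which passed.

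Among 7 tested sensors of foreign nucleic acid, the RNA helicases RIGI (RIG-I, log2 fold change 0.91, adjusted p = 0.044) and IFIH1 (MDA5, 0.51, adjusted p = 0.033) were called higher. IFIH1 ranged from 5.45 to 5.90 on the flagellin arrays and from 4.99 to 5.37 on the mock arrays, without overlap. DHX58 (LGP2), the third member of that helicase family, had 0.79 with an adjusted p of 0.069. MAVS, the adaptor through which RIG-I and MDA5 signal, had -0.435 with an adjusted p of 0.051, and STING1, the adaptor for cytosolic DNA, -0.0034.

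Of 18 tested antiviral effectors 4 were called higher and all 18 had a log2 fold change above 0, with a median of 0.39. RSAD2, whose product viperin makes a chain-terminating nucleotide, had 1.12 (SE 0.21, adjusted p = 0.033). SAMD9L, a translation inhibitor, had 0.81, and the mono-ADP-ribosyltransferases PARP12 and PARP9 0.79 and 0.61. On RSAD2 and SAMD9L all 8 flagellin arrays lay above the highest mock array. MX1 and MX2, the dynamin-like antiviral GTPases, had 0.32 and 0.48 with adjusted p-values of 0.160 and 0.099. Of 14 class I antigen presentation genes, HLA-B was called (0.62, adjusted p = 0.034). Its probes may share sequence with other class I genes, and HLA-C (0.25) and B2M (0.28) did not pass.

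In the signalling list, none of 12 tested genes was called by limma over both times. IRF9, the DNA-binding subunit of ISGF3, had 0.77 (adjusted p = 0.067) and IRF7, which amplifies interferon production, 0.77 (adjusted p = 0.0905). The receptor chains IFNAR1 and IFNAR2 had -0.21 and -0.25, and the kinases JAK1 and TYK2 0.04 and 0.04. Of 8 interferon genes, IFNB1, IFNA1, IFNA2, IFNE and IFNG lay below the filter on low values. The 3 that passed encode interferon lambda: IFNL1, IFNL2 and IFNL3 had log2 fold changes of 0.22, 0.16 and -0.05, with adjusted p-values of 0.492, 0.394 and 0.769. None of the 3 was under an unadjusted p of 0.05. In 6 of the 75 genes the lowest flagellin array lay above the highest mock array, against 0.614% of all genes tested.

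The ISRE core described above was in 31 of the 59 interferon-list genes with a promoter window (52.5%), against 2.66% of tested genes. It was in 8 of 16 called higher and in 23 of 43 not called (53.5%), so its presence did not separate the called from the other members. Among all 117 genes called lower that had a window, 4 held it (3.42%).

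At 60 min the difference was broader. With each group's mean fitted apart, 1530 genes were called between the 4 flagellin and 3 mock arrays of 60 min (9.68%), 795 higher (5.03%) and 735 lower (4.65%). With each array centred on its median the split was 585 higher and 1135 lower. Of the 75 interferon-list genes 35 were called higher and 2 lower, MAVS (-0.62) and IFNAR1 (-0.37). The 35 include IFIT2, which passed the filter through the flagellin arrays and is not read as support. IFI44L had the largest log2 fold change of all genes called at 60 min, 3.15 (SE 0.31, 8.87-fold, adjusted p = 0.0033), followed by IFIT3 with 2.85 (SE 0.35, adjusted p = 0.0046), ISG15 with 2.38, IFI44 with 2.10 and OAS2 with 2.08. IRF9, not called over both times, was 6.05 and 6.41 on EcN and 6.62 and 6.83 on ST, against 5.01, 5.25 and 5.35 on mock (log2 fold change 1.28, adjusted p = 0.0044). The total of 1530 fell to 384 and 378 without mock 60 min B or C, to 801 and 863 without EcN 60 min A or B, and to 526 and 837 without ST 60 min A or B. The 35 interferon calls were 11 and 15 without mock 60 min B or C and 21 without EcN 60 min B, ST 60 min A or ST 60 min B. With the letters A and B alone they were 8.

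At 120 min, between 4 flagellin and 2 mock arrays, 55 genes were called (0.348%), 13 higher (0.0822%) and 42 lower (0.266%). None of the 75 interferon genes was among them by limma. Before adjustment 18 had a p under 0.05 on the higher side and 3 on the lower, against 1272 and 1465 of all 15809 genes tested. With limma's trend and robust settings 5 of the 75 were called higher and 1 lower. ISG15 had a log2 fold change of 1.78 (SE 0.47, adjusted p = 0.105) and IFI44L 0.91 (SE 0.35, adjusted p = 0.208). The 2 mock arrays behind these values had higher IFI44L, IFIT3 and IRF9 than the mock arrays of 60 min. The count of 55 was 662 without mock 120 min C, 1 without mock 120 min B, ST 120 min A or ST 120 min B, and 2 without EcN 120 min B. It was 18 without EcN 120 min A, 9 without ST 60 min A or B, 32, 33 and 17 without mock 60 min A, B or C, and 35 without EcN 60 min A or B.

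**Figure D3:**
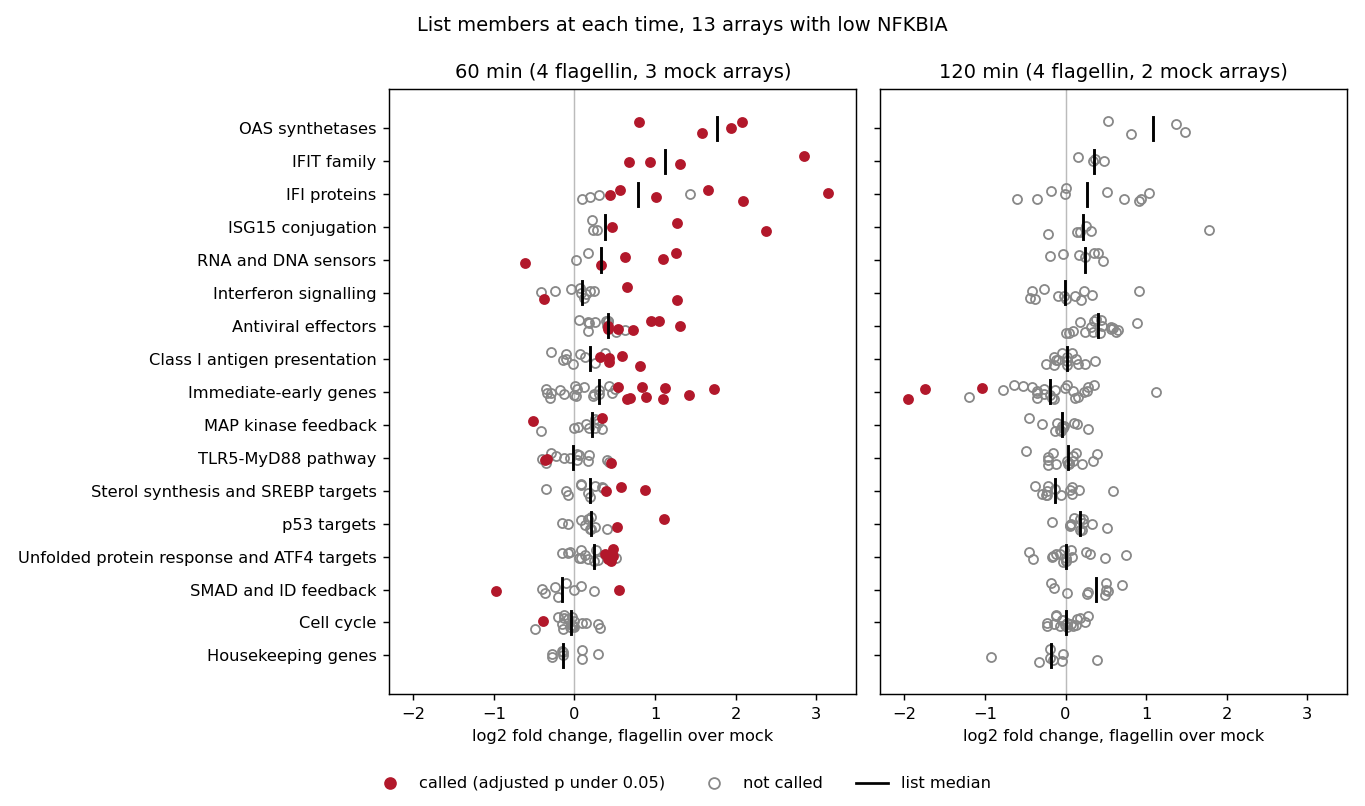
Log2 fold change of flagellin over mock (horizontal axis) for each tested member of 17 gene lists (vertical axis) at 60 min (left, 4 flagellin and 3 mock arrays) and 120 min (right, 4 flagellin and 2 mock arrays). Each point is a gene, and called genes are marked. The interferon lists reach 3.15 at 60 min, and the immediate-early list runs down to -1.95 at 120 min.

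Several immediate-early genes were higher than mock at 60 min and lower at 120 min. Of 27 tested, 9 were called higher at 60 min (background 5.03%), and 3 were called lower at 120 min (background 0.266%). The 9 were 5 and 4 without mock 60 min B or C and 6 without EcN 60 min A or ST 60 min B, and 4 with the letters A and B alone. The 3 were 1 without mock 120 min B, EcN 120 min B or any single ST array, 2 without mock 60 min B or C, EcN 60 min A or B or EcN 120 min A, and 0 with all 18 arrays. EGR1, a zinc finger transcription factor, was 10.78 and 10.51 on EcN A and B and 10.33 and 10.35 on ST A and B at 60 min, against 9.27, 9.04 and 8.89 on mock A, B and C. At 120 min it was 8.92 and 8.81 on EcN A and B and 9.41 and 9.51 on ST A and B, against 10.99 and 10.84 on mock B and C. The groups did not overlap at either time, and the mock arrays of 120 min lay above every flagellin array of 60 min. The log2 fold change was 1.43 (SE 0.11, adjusted p = 0.00065) at 60 min and -1.75 (SE 0.13, adjusted p = 0.00028) at 120 min. Mock 120 min A, left out, was at 9.80, and with all 18 arrays the 120 min value was -1.11 (adjusted p = 0.091).

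The EGR1 promoter is shown because it holds the serum response factor site called the CArG box, the classical element of rapid immediate-early induction. The window is chr5:138465229-138465478 on the plus strand (RefSeq, GRCh38.p14), given as the 250 bases before the start with matches in capitals.
EGR1: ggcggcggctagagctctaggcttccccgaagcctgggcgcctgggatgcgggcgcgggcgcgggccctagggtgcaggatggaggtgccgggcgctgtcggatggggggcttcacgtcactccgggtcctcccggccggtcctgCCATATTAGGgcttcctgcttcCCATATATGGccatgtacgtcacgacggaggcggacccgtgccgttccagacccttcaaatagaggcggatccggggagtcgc
The matches begin 105 and 83 bases before the start. Of 27305 promoters in the table, 351 held the CArG box (1.29%), searched on both strands, and of the 19 immediate-early genes with a window 2 did, EGR1 and SRF.

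FOSB, a member of the AP-1 transcription factor family, was 7.57 and 6.94 on EcN A and B and 6.84 and 6.78 on ST A and B at 60 min, against 5.96, 5.11 and 4.84 on mock. At 120 min it was 6.10, 5.38, 6.19 and 5.62 on those arrays, against 7.90 and 7.66 on mock B and C. Flagellin arrays were all above mock at the first time and all below it at the second. The change of the difference from 60 to 120 min, the 120 min log2 fold change minus the 60 min one, was -3.68 (SE 0.41, adjusted p = 0.0063). For EGR1 it was -3.18 (SE 0.17, adjusted p = 9.62e-06), the smallest adjusted p of that comparison.

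Over all genes the change between the times was called for 541 (3.42%), 183 higher and 358 lower (2.26%). With each array centred on its median the split was 364 higher and 251 lower. Of the 27 immediate-early genes 9 were called lower and none higher, with 3 higher at an unadjusted p under 0.05. Besides FOSB and EGR1 these were EGR3 (-2.32), FOS (-1.88), the AP-1 subunit JUNB (-0.96), the stress-response factor ATF3 (-1.01), IER2 (-1.33), the orphan nuclear receptor NR4A2 (-1.28) and the zinc finger factor KLF6 (-1.01). JUN, called higher at 60 min (0.54), had a change of -0.56 with an adjusted p of 0.143. Dual-specificity phosphatases and Sprouty proteins, which damp MAP kinase signalling, gave 1 call higher (DUSP10, 0.34) and 1 lower (SPRED2, -0.51) among 12 at 60 min, when 5.03% of all genes were called higher and 4.65% lower.

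The change between the times depended on the set of arrays. With all 18 arrays 0 genes were called by limma, and with the 12 arrays lettered A and B, chosen without regard to NFKBIA, 0 again. The EGR1 value was -2.86 (adjusted p = 0.085) with all 18 arrays and -2.57 (adjusted p = 0.132) with the letters A and B. The FOSB value was -3.36 and -3.12 in the same fits. The 541 calls became 218 and 214 without mock 60 min B or C, 268 without mock 120 min C, 256 without EcN 60 min A, 337 and 247 without EcN 120 min A or B, 321 and 248 without ST 60 min A or B, and 286 and 238 without ST 120 min A or B.

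**Figure D4:**
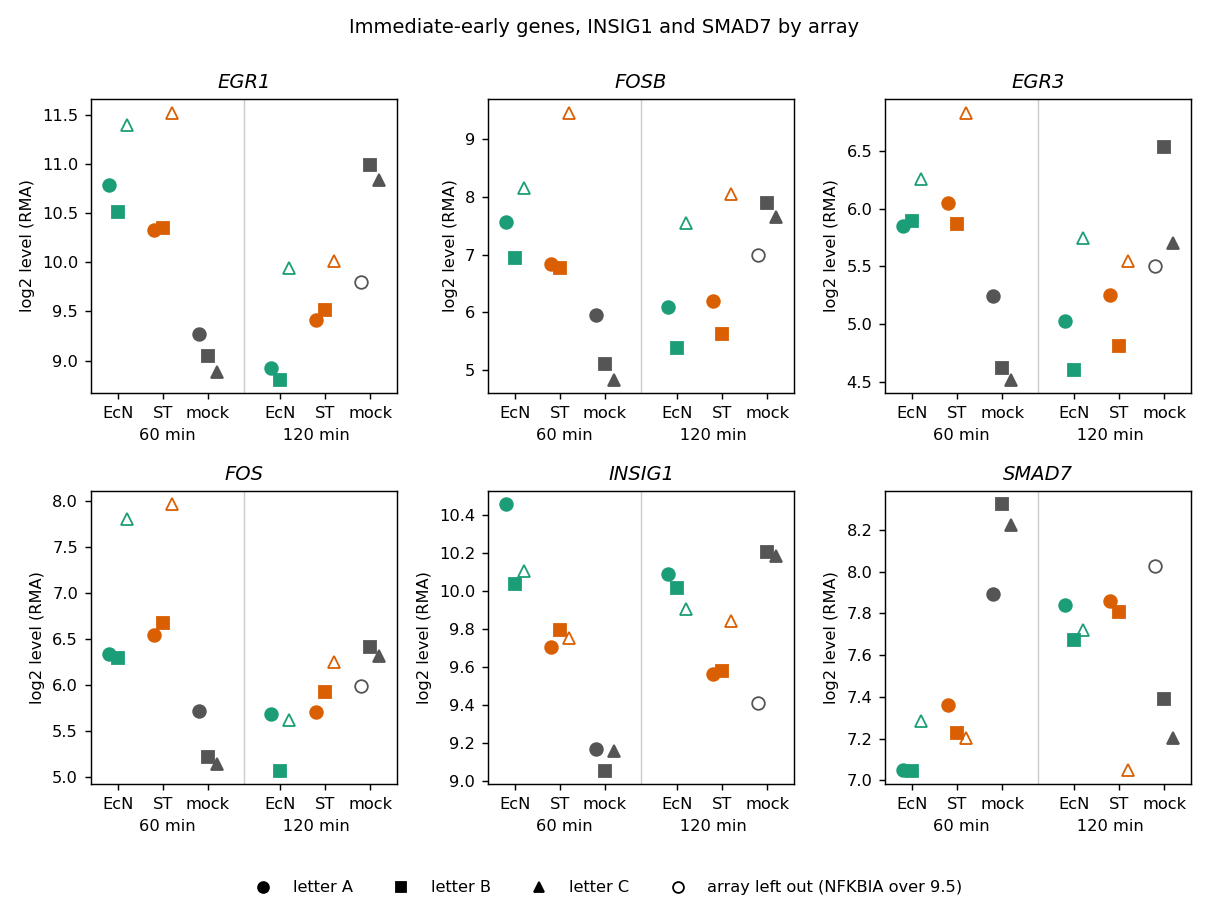
Log2 level (RMA, vertical axis) of EGR1, FOSB, EGR3, FOS, INSIG1 and SMAD7 on each array, by treatment (EcN, ST, mock) at 60 and 120 min; hollow points are the 5 arrays left out. EGR1 on the kept flagellin arrays lies between 10.33 and 10.78 at 60 min and between 8.81 and 9.51 at 120 min, while the kept mock arrays lie between 8.89 and 9.27 and then at 10.99 and 10.84.

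Genes of other lists also changed between the times. INSIG1, which holds the sterol sensor SCAP in the endoplasmic reticulum and is induced by SREBP, was 10.46 and 10.04 on EcN and 9.71 and 9.80 on ST at 60 min, against 9.17, 9.06 and 9.16 on mock. At 120 min it was 10.09 and 10.01 on EcN and 9.57 and 9.58 on ST, against 10.20 and 10.18 on mock. Every kept flagellin array lay above mock at 60 min and below the kept mock arrays at 120 min. The kept mock arrays differed more between the times than the flagellin arrays did. Mock 120 min A, left out, had INSIG1 at 9.41, under every kept flagellin array of 120 min. Its change was -1.25 (SE 0.16, adjusted p = 0.0065). SMAD7, the inhibitory SMAD that damps TGF-beta signalling, had the opposite pattern on the kept arrays. It was 7.05, 7.05, 7.36 and 7.23 on flagellin against 7.89, 8.33 and 8.23 on mock at 60 min. At 120 min it was 7.84, 7.68, 7.86 and 7.81 against 7.39 and 7.20. On the left-out mock 120 min A SMAD7 was 8.03, above each of those flagellin arrays. Its change was 1.48 (SE 0.17, adjusted p = 0.0063). IFIT3 (-2.51), IFI44L (-2.24) and IRF9 (-1.16) were among 5 interferon genes called lower in the change. The largest positive change belonged to the 5S ribosomal RNA pseudogene RNA5SP435 (2.24), and INO80D, a subunit of the INO80 chromatin remodeller, had 1.79. On mock 120 min A RNA5SP435 was 6.12, against 4.48 and 3.98 on mock B and C. INO80D was 8.18 there, against 6.81 and 6.59.

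At 120 min the largest called increases were RRS1 (log2 fold change 1.28) and DHX37 (0.86), both of ribosome assembly, NCOA5 (1.05), a nuclear receptor coregulator, ATG14 (0.94), an autophagy protein, and SLC30A1 (0.87), a zinc exporter. RRS1 was 8.29 and 8.43 on EcN A and B and 8.05 and 8.31 on ST A and B, against 6.51 and 7.47 on mock B and C. The left-out mock 120 min A had 7.54, and mock at 60 min 7.50 to 7.71. NCOA5 was 8.44 to 8.75 on flagellin at 120 min, against 7.60 and 7.44 on mock B and C. Mock 120 min A had 8.52 and mock at 60 min 8.22 to 8.74. DHX37 was 7.28 to 7.79, against 6.66 and 6.68, with 7.69 on mock 120 min A and 7.46 to 7.76 on mock at 60 min. For SLC30A1 and ATG14 mock 120 min A had 8.19 and 6.49, against 8.79 to 9.24 and 6.58 to 7.15 on flagellin. Of the 15 ribosome biogenesis factors tested, RRS1 alone was called then. Beside EGR1 and FOSB, the largest decreases were the 5S pseudogene RNA5SP496 (-1.48), SNAI1 (-1.23), a repressor known from epithelial-mesenchymal transition, and the small nucleolar RNA SNORD92 (-1.20). On mock 120 min A RNA5SP496 was 4.10, SNAI1 4.87 and SNORD92 2.74. The kept flagellin arrays of 120 min ran from 2.31 to 3.11, 4.31 to 4.66 and 2.50 to 2.94.

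The 2 flagellins were set against the same mock arrays, so their values are given side by side. EcN over mock gave 1 call by limma (0.00633%), and ST over mock 209 (1.32%), 116 higher (0.734%) and 93 lower (0.588%). Before adjustment, 1509 genes for EcN had a p under 0.05 and a positive fold change and 1379 a negative one, against mock, and for ST these were 1613 and 1538. ISG15 had a log2 fold change of 1.43 (SE 0.35, adjusted p = 0.111) for EcN and 2.80 (SE 0.35, adjusted p = 0.0087) for ST. IFI44L had 1.79 and 2.55, OAS1 1.13 and 2.26, OAS2 1.58 and 2.06, and IRF7 0.30 and 1.24, EcN before ST in each. For EcN 0 of the 75 interferon genes were called by limma (at an unadjusted p under 0.05, 32 were higher and 2 lower), and for ST 19 were called higher. The 0 became 17 higher without mock 120 min C, 31 with all 18 arrays and 17 with the letters A and B alone. The 19 became 7, 11 and 6 without mock 60 min A, B or C, 8 without mock 120 min B, 32 without mock 120 min C, 2 and 4 without ST 60 min A or B, and 5 without ST 120 min B. Leaving out mock 120 min C gave 1310 genes for EcN and 1264 for ST, and leaving out ST 60 min A gave 3 for ST. Other single arrays moved the ST count to 42, 52 and 22 (mock 60 min A, B, C), 16 (mock 120 min B), 131 (EcN 60 min B), 125 (EcN 120 min A), 13 (ST 60 min B), 69 (ST 120 min A) and 12 (ST 120 min B). The EcN count was 2 without EcN 120 min A, and 0 when mock 60 min B or C, mock 120 min B, either EcN array of 60 min or EcN 120 min B was omitted.

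A call in one of these comparisons and not in the other does not show a difference between the flagellins, which was tested directly. ST over EcN called 2 genes (0.0127%) and none of the interferon genes by limma. At an unadjusted p under 0.05, 19 interferon genes were higher in ST and 0 lower, against 779 and 892 of all 15809 genes tested. ISG15 was 6.41 and 6.50 on ST against 4.22 and 5.91 on EcN at 60 min, and 6.27 and 7.08 on ST against 4.53 and 6.12 on EcN at 120 min (log2 fold change 1.37, SE 0.37, adjusted p = 0.226). DNAH17, an axonemal dynein heavy chain, was 4.34, 4.40, 4.43 and 4.51 on the ST arrays, against 3.24, 3.68, 3.47 and 3.71 on the EcN arrays (log2 fold change 0.89, SE 0.11, adjusted p = 0.024). NCAM2, a neural cell adhesion molecule, was 3.54, 3.40, 3.43 and 3.55 on ST, against 4.04, 4.19, 4.19 and 4.11 on EcN (-0.65, SE 0.09, adjusted p = 0.027). Neither gene's groups overlapped. Between 0 and 4 genes were called in this comparison when single arrays were left out, 0 of them without mock 60 min B, EcN 60 min A, ST 60 min B, ST 120 min A or ST 120 min B, 1 without mock 60 min A or EcN 120 min A, and 4 without EcN 120 min B.

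RNA5SP496 had the lowest log2 fold change of the genes called over both times. It is one of many near-identical 5S ribosomal RNA copies, whose probes may share sequence. It was 3.04, 2.81, 3.23 and 3.43 on EcN A and B and ST A and B at 60 min, against 3.97, 4.66 and 4.86 on mock, and 2.99, 2.31, 2.59 and 3.11 at 120 min, against 4.08 and 4.39 on mock B and C. All 8 flagellin arrays lay below all 5 mock arrays, and the log2 fold change was -1.42 (SE 0.17, adjusted p = 0.0082). It was the one named gene called in all 13 fits that left out an array, and it was the gene called for EcN (-1.57). RNU5A-8P, a U5 spliceosomal RNA pseudogene, had -0.93 and the nucleolar RNA SNORA66, which guides pseudouridylation, -0.83, while SNORD105, which guides methylation, was higher (0.93).

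Of the 15 called genes with the lowest log2 fold change, 2 are microRNA loci. Their mature sequences (RefSeq, GRCh38.p14) are given with the seed, bases 2 to 8, in capitals, because the seed decides which transcripts a microRNA can pair with. MIR130B lies on chr22 and its arms at chr22:21653316-21653336 and chr22:21653354-21653375 (plus strand), and miR-3132 at chr2:219549117-219549140 (minus strand).
hsa-miR-130b-5p: aCUCUUUCccuguugcacuac
hsa-miR-130b-3p: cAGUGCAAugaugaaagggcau
hsa-miR-3132: uGGGUAGAgaaggagcucagagga
The 3 seeds differ. The array reads RNA from the locus and does not separate the arms or the mature form from its precursor. MIR130B was 2.58 and 1.31 on EcN and 2.0 and 1.42 on ST at 60 min, against 2.21, 3.72 and 3.16 on mock, and 1.86 and 1.56 on EcN and 1.28 and 1.86 on ST at 120 min, against 3.16 and 3.24 on mock. These are among the lowest levels on the arrays, whose medians over all rows lay between 2.27 and 2.32. Of the flagellin arrays, EcN 60 min A alone had it above its own array median, so MIR130B passed the filter through the mock arrays. In 7 of 8 flagellin arrays the level was below the lowest mock array, and the log2 fold change was -1.36. Its limma result (SE 0.24, adjusted p = 0.033) is not read as support, because the filter admitted it through the higher group. MIR3132 had -0.93 (SE 0.18, adjusted p = 0.033), also with 7 of 8 below.

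Among lower protein-coding genes, MT1F, a metallothionein that binds zinc and copper, ranged from 6.02 to 6.995 on the flagellin arrays (median 6.39) and from 6.997 to 7.60 on the mock arrays, which did not overlap. Its log2 fold change was -0.81 (SE 0.15, adjusted p = 0.033). ULBP2, a stress-induced ligand of the natural killer receptor NKG2D, had -1.01, with 7 of 8 flagellin arrays below the lowest mock array. TMEM47 (-0.71), a cell junction membrane protein, TUBB4A (-0.72), a beta-tubulin, and HOXB8 (-0.73), a homeobox factor, were called as well. The histone gene H2BC12 was lower (-0.85) and H2BC21 higher (0.66). Of the 21 replication-dependent histone genes 9 were tested, and these were the calls in that list. In 88 genes the highest flagellin array lay below the lowest mock array (0.557%).

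**Figure D5:**
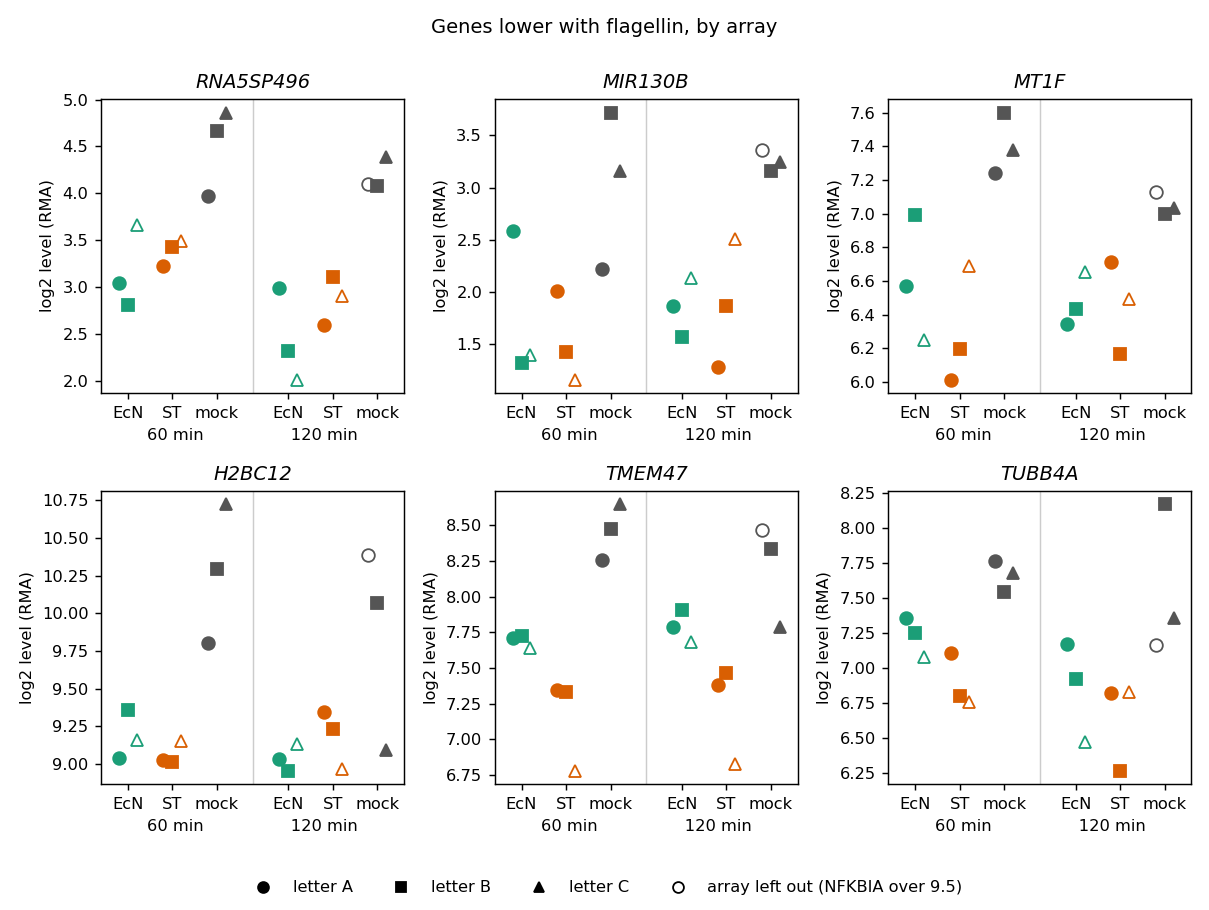
Log2 level (RMA, vertical axis) of genes called lower over both times on each array, by treatment (EcN, ST, mock) at 60 and 120 min; hollow points are the 5 arrays left out. For RNA5SP496 all kept flagellin arrays lie at or under 3.43 and all kept mock arrays at or over 3.97.

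Other called genes were ESRRA (0.87), an orphan nuclear receptor of energy metabolism, ACOT2 (0.82), a mitochondrial acyl-CoA thioesterase, and BHLHA15 (0.81), a factor of secretory cells. From the remaining lists, MVD of the sterol pathway (0.46, adjusted p = 0.040), the endoplasmic reticulum isomerase PDIA4 (0.35, adjusted p = 0.040), the inhibitory helix-loop-helix factor ID4 (0.53, adjusted p = 0.037) and the ribosome assembly factor GRWD1 (0.64, adjusted p = 0.044) were called higher. Each is the single call among the 13, 17, 10 and 15 genes tested in its list. MVD ranged from 6.25 to 6.83 on flagellin arrays and from 5.87 to 6.23 on mock arrays, without overlap. Of 12 p53 targets none was called over both times. At an unadjusted p under 0.05, 5 were higher, against 1683 of all 15809 genes tested. At 60 min 2 of the 12 were called higher, GDF15 (1.11), a stress cytokine, and TP53I3 (0.53), an oxidoreductase, beside 5.03% of all genes.

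The receptor pathway itself gave no calls over both times among its 16 tested genes by limma. At an unadjusted p under 0.05, 3 were higher and 4 lower, against 1683 and 1664 of all 15809 genes tested. The human TLR5 probes, which were not designed for the murine transgene, ranged from 3.17 to 4.05 on flagellin arrays and from 3.32 to 4.18 on mock arrays, with a log2 fold change of -0.12 (adjusted p = 0.726). At 60 min 1 gene was called higher, the ubiquitin ligase PELI1 (0.46), and 2 lower, the kinase IRAK1 (-0.34) and the IkB kinase subunit IKBKG (-0.37), beside 5.03% of all genes called higher and 4.65% lower.

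Markers of the line and of other cells were read beside these results. Of 6 HEK293 markers all were tested, with a mean level per array of 6.35 to 6.65 on flagellin arrays and 6.22 to 6.45 on mock arrays. The neurofilament gene NEFL, known from this line, lay between 10.36 and 10.65 on flagellin arrays and between 10.02 and 10.53 on mock arrays. Another neurofilament gene of the list, NEFM, lay between 1.62 and 2.33 on flagellin arrays and between 1.61 and 2.20 on mock arrays. Those levels are near or under the array medians. At 60 min 3 of the 6 were called higher, NEFL (0.38) and the keratin genes KRT8 (0.56) and KRT18 (0.48), and 1 lower, the intermediate filament gene VIM (-0.51). Of all genes tested, 5.03% were called higher at 60 min and 4.65% lower. Of 6 tested intestinal epithelium markers 2 were called lower then, the homeobox gene CDX2 (-0.64) and the stem cell receptor LGR5 (-0.44). The part of these in the interferon-stimulated gene differences was not tested. Of 10 leukocyte markers 6, among them PTPRC and CD3E, had no tested row, and the mean level of the other 4 ran from 4.29 to 4.46 on flagellin arrays and from 4.22 to 4.44 on mock arrays, of which CD68 is made by many cell types. None of the leukocyte, fibroblast or endothelial markers was called over both times by limma, and 0 were under an unadjusted p of 0.05. Fewer cells of a type and less RNA per cell cannot be told apart in such bulk samples. Of 8 housekeeping genes tested none was called by limma. At an unadjusted p under 0.05 over both times, 1 was higher and 5 were lower, against 1683 and 1664 of all 15809 genes tested. ACTB had -0.48 (adjusted p = 0.181), and GAPDH, between 7.27 and 7.75 on flagellin arrays and between 7.54 and 7.86 on mock arrays, had -0.24 (adjusted p = 0.147).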

How the data were processed

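The submitters hybridised total RNA from 18 cultures to Affymetrix Human Gene 2.1 ST arrays. The deposited values are log2 levels, which the authors made by RMA with oligo 1.30.0, per the submitters' processing notes. The sources used here give no genome build. Each value sums up a transcript cluster, and no counts or depths exist, so the number of arrays limits the precision. Of 53617 rows, 23871 had 1 gene symbol, 1842 several and 27904 none in the platform annotation; 655 symbols were updated through Entrez gene numbers and RefSeq, and 4 were kept from the platform alone. Values ran from 0.17 to 13.62.

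A gene was kept where 3 or more of the 13 arrays had it above their own median, and the row with the highest mean stood for each of 387 genes with several rows, which left 15809 genes. limma 3.58.1 in R 4.3.3 fitted flagellin and time (10 residual degrees of freedom), the treatments apart and time, or the 6 group means (7 residual degrees of freedom) for the single times and their difference, and p-values were adjusted by Benjamini-Hochberg over all genes. The scripts were tested on simulated data with known differences and noise independent between arrays. Those data held no effect of a single array, so the test does not bear on how counts depend on single arrays. The members and gene lists were chosen with earlier results of these data known, and NFKBIA selected the arrays, so p-values hold for these 13 arrays as chosen.

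Genes were named by rule: the 15 highest and 15 lowest called over both times, up to 5 members of each list by size of change, lists with 5 or fewer calls, all OAS, IFIT and ISG15 conjugation genes, fixed markers and controls, and the 5 highest and 5 lowest called genes of each other comparison. Other list members were named after their values were seen. Over 26 same-letter pairs of kept arrays, the correlation of deviations from the group means ran from -0.086 to 0.109, and 2 were over 0.1. Those 2, of the EcN arrays lettered A and B, are the same value. Deviations in a group of 2 arrays mirror each other, so the A and B pairs of the flagellin groups repeat each other. Alternatives were leaving out each array, the letter as a block, all 18 arrays, the letters A and B alone, other filters, scalings and limma settings.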

Additional observations from a re-analysis of the deposited data

Results flagged for a closer look

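Tested directly on the 13 kept arrays, the flagellin difference from mock itself differed between 60 and 120 min in the genes that follow. As the 120 min log2 fold change minus the 60 min one, it was lower for the immediate-early genes FOSB (-3.68), EGR1 (-3.18), EGR3 (-2.32), FOS (-1.88), IER2 (-1.33), NR4A2 (-1.28), ATF3 (-1.01), KLF6 (-1.01) and JUNB (-0.96). It was lower too for the interferon genes IFIT3 (-2.51), IFI44L (-2.24) and IRF9 (-1.16) and for INSIG1 (-1.25). It was higher for RNA5SP435 (2.24), MIR4653 (1.83), INO80D (1.79), SMAD7 (1.48) and RRS1 (1.34). The left-out mock array of 120 min, lettered A, had EGR1 at 9.80, against 10.99 and 10.84 on the mock arrays kept. In IFI44L that array was at 2.25, against 4.84 and 4.83 on those kept, while the mock arrays of 60 min lay between 2.65 and 3.15. With all 18 arrays, and with the letters A and B alone, 0 genes were called for this change by limma.

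The ST arrays differed from the EcN arrays in DNAH17 (log2 fold change 0.89) and NCAM2 (-0.65).

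The 4 flagellin arrays lettered C, outside the comparisons above, also had high interferon-stimulated genes: their lowest ISG15 level was 5.79 and their lowest IFI44L level 5.98. Mock 120 min A, also left out, had 3.94 and 2.25.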

How the results depend on the processing

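Which arrays enter decided most counts of called genes, and the cause was not tested. Leaving out 1 array moved the 293 genes of both times to between 1 and 1695, the 1530 of 60 min to between 378 and 1932, the 55 of 120 min to between 1 and 662, and the 541 of the change between the times to between 214 and 587. It moved EcN over mock (1) to between 0 and 1310, ST over mock (209) to between 3 and 1264, and ST over EcN (2) to between 0 and 4. With all 18 arrays the counts were 1920 for both times, 118 at 120 min, 0 for the change, 1519 for EcN, 1576 for ST and 86 for ST over EcN. With the letters A and B alone they were 1950, 284 at 60 min, 414 at 120 min, 0, 1599, 1359 and 1. Without both EcN arrays lettered A, chosen after seeing the data, they were 192 for both times, 478 at 60 min and 24 at 120 min, and the 120 min arrays alone gave 1.

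With the letter as a replicate block the counts were 190 for both times, 31 at 120 min, 0 for EcN and 0 for ST over EcN; the other counts stayed within 1.5 times. The correlations of same-letter deviations covered the kept arrays alone, none of them a flagellin array lettered C. They therefore cannot show what the letters share across the whole experiment.

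Without a filter, 160 genes were called for both times, 307 for the change and 131 for ST. With a mean level of at least 5 the counts were 935 for both times, 495 at 120 min, 1004 for the change, 259 for EcN, 758 for ST and 20 for ST over EcN. limma's trend and robust settings gave 771, 444, 1006, 89, 652 and 8, and array weights 871, 5, 275, 153, 726 and 40, in that order. With 6 group means the counts were 474 for both times, 0 for EcN, 453 for ST and 28 for ST over EcN. Of 139 gene values 1 changed direction: IFIT3 at 120 min, 0.34 and not called, had its lowest value with 1 array left out, -0.040, when that array was EcN 120 min B, and its highest, 0.73, when it was EcN 120 min A.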
